A study of Mus musculus with 12 samples.

Results

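BCL2 family genes, 10 in number, were followed across CD4+ T cells from 3 groups of mice: the antiapoptotic genes *Bcl2*, *Bcl2l1*, and *Mcl1*, the effector genes *Bax* and *Bak1*, and the BH3-only genes *Bcl2l11*, *Pmaip1*, *Bid*, *Bad*, and *Bmf*. They were taken by symbol from the count tables of all libraries, 10 of 26608 genes listed, and all 10 were among the 16035 genes with enough reads to test. In DKO-severe, *Pmaip1*, which encodes the MCL1-binding protein NOXA, was 16.0 times its WT level, *Bak1* 1.88 times, *Bcl2l1* 1.70 times, *Bad* 1.61 times, and *Bax* 1.40 times, whereas *Mcl1* was at 0.624 times its WT level. Each of these 6 differences passed the test, in a comparison in which 52.6% of all genes did. With terms for neutrophil and B cell genes in the fit, *Pmaip1* and *Bak1* kept the call, and *Bcl2l1*, *Mcl1*, *Bad*, and *Bax* lost it. With those terms 3031 of all genes passed, beside 8428 without them. The log2 fold changes of *Bcl2l1*, *Mcl1*, and *Bad* changed little, and that of *Bax* fell. Neutrophil gene sums of DKO-severe did not overlap those of the other groups, so this fit could not separate group from neutrophil level. *Bcl2*, *Bcl2l11*, *Bid*, and *Bmf* did not pass in any comparison. In DKO-moderate, *Pmaip1*, *Bak1*, and *Bad* were higher than in WT, and none of the 10 genes was called lower. Of all genes, 12.3% were higher and 4.74% lower in that comparison. The call of *Bad* there was lost in 5 of 23 alternatives.

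BCL2 family proteins meet at the outer membrane of the mitochondrion. BAX and BAK, the effectors, can open pores in it and release cytochrome c, which starts the caspase cascade of intrinsic apoptosis. BCL2, BCL-XL (the product of *Bcl2l1*), and MCL1 hold the effectors in check, and BH3-only proteins such as BIM (the product of *Bcl2l11*), NOXA, BID, BAD, and BMF bind the antiapoptotic proteins, the effectors, or both. In T cells, BIM is known for the removal of cells whose cytokine supply or antigen receptor signal calls for death, and BCL2 and MCL1 for the survival of resting cells.

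The cells were CD4+ YFP(FOXP3)- T cells, sorted from spleen and cervical and inguinal lymph nodes that were pooled for each mouse, and 1 library of total RNA was made from each of 4 Foxp3Cre WT, 4 Foxp3Cre Tet2/3 flox/flox (DKO-moderate), and 4 Foxp3Cre Tet2/3 flox/flox (DKO-severe) mice, all 14 weeks old. All 3 groups carry the Cre recombinase and the YFP reporter, which are expressed from the *Foxp3* locus. In the DKO mice, the floxed *Tet2* and *Tet3* alleles are thus deleted in cells that have expressed *Foxp3*. Cells without YFP therefore mix conventional CD4+ T cells with former regulatory T cells, and the counts do not separate them. The study mentions that this Cre is considered leaky, so that cells outside the regulatory lineage may have lost *Tet2* too. DKO stands for double knockout of *Tet2* and *Tet3*. The moderate and severe groups have the same genotype and were told apart in the study by the number of cells in the lymphoid organs.

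Levels are given as CPM, the reads of a gene relative to the TMM-scaled total of its library, and a difference is called when its adjusted p from edgeR's quasi-likelihood test, fitted on all genes and all 12 libraries, is under 0.05. Libraries held 29254260 to 42133536 reads on genes. The summed level of 6 general T cell genes, *Cd4* among them, was 3646 to 4088 CPM in WT, 4229 to 4624 CPM in DKO-moderate, and 3557 to 3898 CPM in DKO-severe, and that of *Cd8a* and *Cd8b1* was 26.7 CPM or lower in every library. The sum of 10 neutrophil genes was 0 to 2.10 CPM in WT, where *Elane* was at 0 in all libraries. It was 0.159 to 8.58 CPM in DKO-moderate and 10.3 to 2249 CPM in DKO-severe, DKO-severe 1 and 2 being highest with 2249 and 828 CPM. The sum of 7 B cell genes was 6.81 to 207 CPM in WT, with WT 3 far above the other WT libraries, 19.8 to 47.4 CPM in DKO-moderate, and 68.0 to 374 CPM in DKO-severe. Sums for other cell types moved with the groups too. For 5 plasma cell genes they were 0.690 to 89.1, 2.84 to 26.1, and 51.2 to 198 CPM in the order WT, DKO-moderate, DKO-severe. For 6 monocyte and macrophage genes they were 4.31 to 173, 11.3 to 46.8, and 58.2 to 348 CPM, and for the 4 tested of 6 erythroid genes 0.144 to 14.6, 0.744 to 5.78, and 8.62 to 32.1 CPM. WT 3 was the highest WT library in all of these. Sums of 5 proliferation genes did not overlap between the groups, at 65.9 to 121 CPM in WT, 187 to 309 CPM in DKO-moderate and 419 to 1066 CPM in DKO-severe, and 6 naive T cell genes summed to 3993 to 4633, 2204 to 3516, and 1419 to 1931 CPM. Results that these libraries could touch are given below with and without DKO-severe 1, DKO-severe 2, and WT 3. In bulk RNA, fewer cells of a type and less RNA per cell cannot be told apart. The sum of 4 Y-linked genes was 0 CPM in WT 2 and DKO-moderate 2, 0.0265 CPM in DKO-moderate 4, and 0.571 CPM in DKO-severe 3. In all other libraries it was 370 to 556 CPM, so each group mixed mice with and without Y-linked transcripts, in unequal numbers.

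Compared per kilobase of exon, which sets genes of different length on 1 scale, *Mcl1* was the highest of the 10 genes in every group, at 254 ± 39.0 CPM per kb in WT, against 225 ± 43.7 in DKO-moderate and 159 ± 16.3 in DKO-severe (SD, n = 4). In WT it was followed by *Bax* at 51.5 ± 6.29 CPM per kb, *Bcl2* at 25.7 ± 2.42, *Bak1* at 24.8 ± 1.77, *Bcl2l11* at 8.74 ± 1.82, *Bid* at 6.36 ± 0.569, *Bcl2l1* at 4.82 ± 0.446, *Bad* at 4.74 ± 0.104, *Pmaip1* at 1.72 ± 0.957, and *Bmf* at 1.20 ± 0.654 (SD, n = 4). Neighbours in this order that overlapped between libraries were *Bcl2* and *Bak1*, *Bcl2l11* and *Bid*, *Bcl2l1* and *Bad*, and *Pmaip1* and *Bmf*. *Pmaip1* stood 9th of 10 in WT, 6th in DKO-moderate, and 4th in DKO-severe, where its 27.5 ± 10.2 CPM per kb overlapped *Bcl2* at 26.7 ± 3.99 (SD, n = 4). With the length of the longest transcript in place of all exon bases, *Pmaip1* stood 9th in both WT and DKO-moderate and 5th in DKO-severe. Among the 3 antiapoptotic genes, *Mcl1* made up 89.1% ± 1.6 of the level per kb in WT, against 86.8% ± 1.7 in DKO-moderate and 81.9% ± 1.5 in DKO-severe (SD, n = 4). Among the 5 BH3-only genes followed here, *Bcl2l11* held 38.2% ± 2.3 and *Pmaip1* 7.2% ± 2.7 in WT, against 18.5% ± 7.1 and 52.7% ± 12.8 in DKO-severe (SD, n = 4). The level of *Bcl2l11* itself did not fall, at 9.04 ± 2.01 CPM per kb in DKO-severe (SD, n = 4), so its smaller share reflects the rise of *Pmaip1*. Shares were taken with all exon bases only, and BH3-only genes outside the 10 are not in them.

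**Figure D1:**
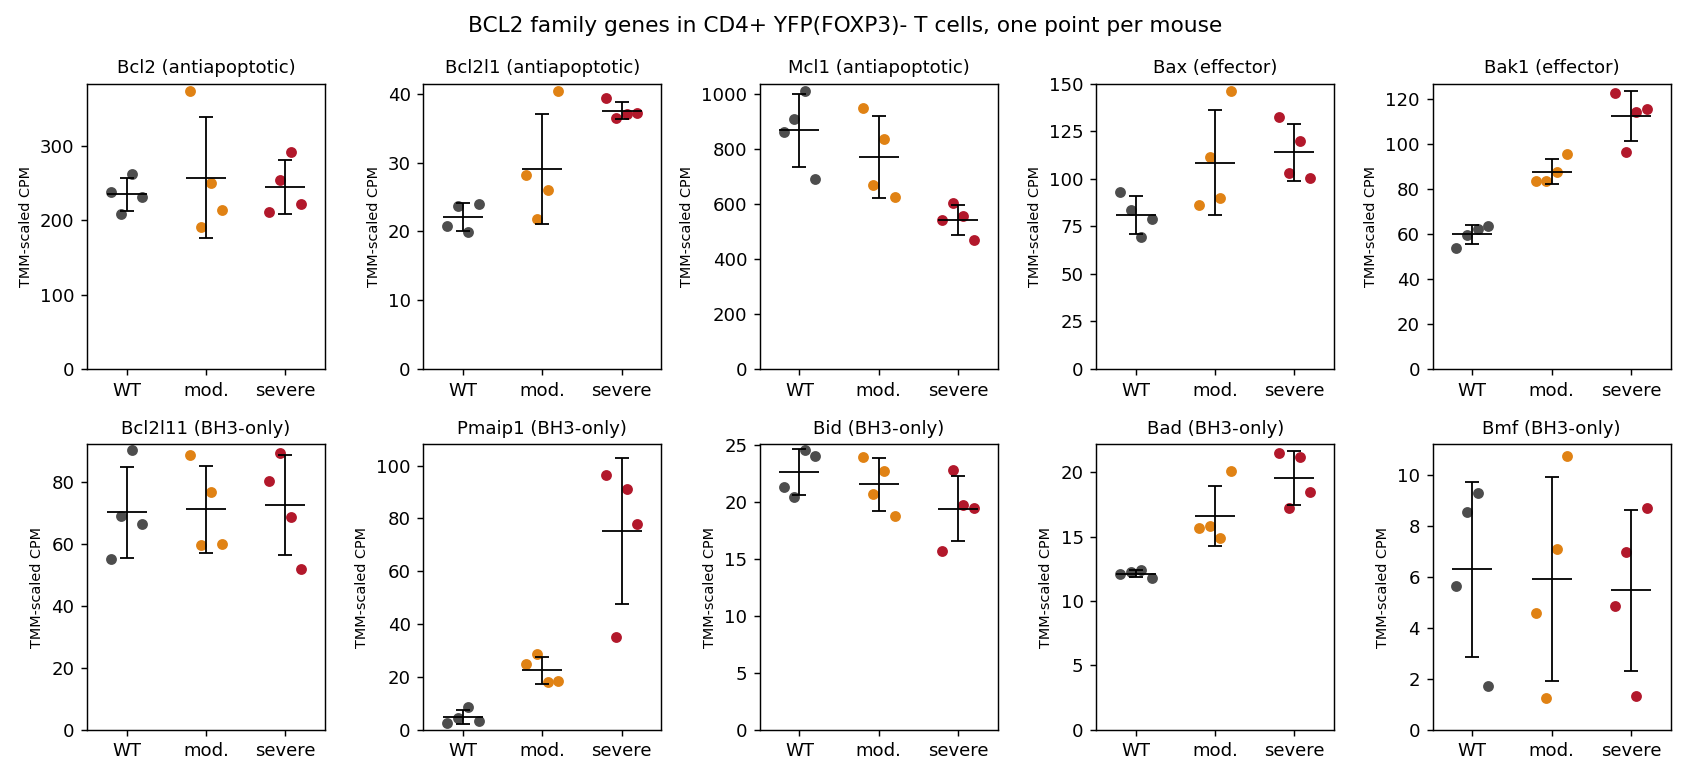
Level of each of the 10 genes in TMM-scaled CPM (y axis, from 0, its own scale per gene) in WT, DKO-moderate (mod.), and DKO-severe libraries; each point is 1 mouse, the long bar is the mean, and the error bar is the SD of 4 mice. Bak1 and Pmaip1 rise in 2 steps without overlap, Mcl1 lies lower in all DKO-severe libraries than in any other, and Bcl2, Bcl2l11, Bid, and Bmf overlap throughout.

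*Bcl2* had levels of 238, 209, 262 and 231 CPM in the 4 WT mice, 374, 191, 250.2 and 213 CPM in the DKO-moderate mice, and 211, 254, 292 and 221 CPM in the DKO-severe mice. The 3 groups overlapped, and the highest library was DKO-moderate 1. *Bcl2* lies on the minus strand of chromosome 1 (chr1:106538178-106714274, GRCm38). Its log2 fold change between DKO-severe and WT was 0.06 (SE 0.18, adjusted p = 0.805, edgeR), with a 95% interval from -0.34 to 0.46, and in DKO-moderate it was 0.13 (SE 0.18, adjusted p = 0.664, edgeR). A difference of *Bcl2* within these bounds could not be told from the spread between mice.

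*Bcl2l1* had levels of 20.8, 23.6, 19.9 and 24.0 CPM in the 4 WT mice, 28.2, 21.8, 26.1 and 40.5 CPM in the DKO-moderate mice, and 39.4, 36.6, 37.1 and 37.2 CPM in the DKO-severe mice. All DKO-severe libraries lay above all WT libraries and close together, while DKO-moderate ran from the WT range to above the DKO-severe range. The gene (chr2:152780668-152831728, minus strand) was higher in DKO-severe than in WT by a log2 fold change of 0.77 (SE 0.16, adjusted p = 0.00158, edgeR). The log2 fold changes of DKO-moderate against WT, 0.40 (adjusted p = 0.101, edgeR), and of DKO-severe against DKO-moderate, 0.37 (adjusted p = 0.111, edgeR), did not pass. The former passed without DKO-moderate 2 (adjusted p = 0.0394, edgeR) and with DESeq2 (adjusted p = 0.0493), and without DKO-moderate 4 the latter did (adjusted p = 0.00539, edgeR).

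*Mcl1* had levels of 861, 909, 1011 and 692 CPM in the 4 WT mice, 948, 670.0, 835 and 626 CPM in the DKO-moderate mice, and 541, 603, 556 and 469 CPM in the DKO-severe mice. The highest DKO-severe library lay below the lowest library of both other groups, and DKO-moderate and WT overlapped. *Mcl1* (chr3:95658788-95663176, plus strand) was the only one of the 10 genes called lower in any comparison, with log2 fold changes of -0.68 in DKO-severe against WT (SE 0.15, adjusted p = 0.00246, edgeR) and -0.51 in DKO-severe against DKO-moderate (SE 0.15, adjusted p = 0.0330, edgeR). In DKO-moderate against WT its log2 fold change was -0.17 (adjusted p = 0.446, edgeR). The call against DKO-moderate was lost without DKO-moderate 1, DKO-moderate 3, DKO-severe 1, DKO-severe 3, or DKO-severe 4, with adjusted p-values from edgeR of 0.0744 to 0.117, and when TMM gave way to the size factors of DESeq2 (0.0609) or to the plain library size (0.0613).

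*Bax*, the first of the effectors, had levels of 93.1, 83.4, 69.3 and 78.7 CPM in the 4 WT mice, 86.3, 112, 89.7 and 146 CPM in the DKO-moderate mice, and 132, 103, 120 and 100.2 CPM in the DKO-severe mice. DKO-severe lay above WT in all libraries, and DKO-moderate overlapped both. The log2 fold change of *Bax* (chr7:45461697-45466898, minus strand) was 0.49 in DKO-severe against WT (SE 0.16, adjusted p = 0.0241, edgeR) and 0.42 in DKO-moderate against WT (SE 0.16, adjusted p = 0.0973, edgeR). The call in DKO-severe was lost without WT 3, WT 4, or DKO-severe 1 (adjusted p = 0.0638, 0.0542, and 0.0700, edgeR). In GENCODE M21, 12.2% of the exon bases of *Bax* are shared with the gene *Gm45808* on the same strand.

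*Bak1* had levels of 54.0, 59.4, 62.4 and 63.5 CPM in the 4 WT mice, 83.7, 83.6, 87.7 and 95.4 CPM in the DKO-moderate mice, and 123, 96.5, 114 and 116 CPM in the DKO-severe mice. The 3 groups did not overlap. *Bak1* (chr17:27019810-27029009, minus strand) was higher in DKO-severe than in WT by a log2 fold change of 0.91 (SE 0.09, adjusted p = 1.22e-05, edgeR), in DKO-moderate than in WT by 0.55 (SE 0.09, adjusted p = 0.00148, edgeR), and in DKO-severe than in DKO-moderate by 0.36 (SE 0.09, adjusted p = 0.0153, edgeR). *Bak1* in DKO-severe against WT passed in all alternatives run, the largest adjusted p from edgeR among them being 0.00405.

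*Bcl2l11*, the first of the BH3-only genes, had levels of 55.2, 68.9, 90.2 and 66.3 CPM in the 4 WT mice, 88.5, 59.7, 76.9 and 59.8 CPM in the DKO-moderate mice, and 80.1, 89.4, 68.8 and 51.9 CPM in the DKO-severe mice. The ranges of the 3 groups lay almost on top of each other. The log2 fold change of *Bcl2l11* (chr2:128126038-128162547, plus strand) was 0.05 in DKO-severe against WT, with a 95% interval from -0.37 to 0.47 (adjusted p = 0.844, edgeR), and 0.02 in DKO-moderate against WT, with an interval from -0.40 to 0.44 (adjusted p = 0.952, edgeR).

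*Pmaip1* had levels of 2.7, 4.36, 8.48 and 3.25 CPM in the 4 WT mice, which corresponds to 94 to 295 reads, 25.0, 28.6, 17.9 and 18.4 CPM in the DKO-moderate mice, and 96.5, 35.3, 91.1 and 78.1 CPM in the DKO-severe mice. The groups did not overlap, and within DKO-severe the second library was the lowest by far, yet above all DKO-moderate libraries. *Pmaip1* (chr18:66458533-66465565, plus strand) had the largest log2 fold changes of the 10 genes in all 3 comparisons, 4.00 in DKO-severe against WT (SE 0.41, adjusted p = 1.59e-05, edgeR), 2.26 in DKO-moderate against WT (SE 0.38, adjusted p = 0.00220, edgeR), and 1.74 in DKO-severe against DKO-moderate (SE 0.36, adjusted p = 0.00866, edgeR). DKO-severe 3 and 4, the DKO-severe libraries lowest in neutrophil genes at 23.9 and 10.3 CPM, held 91.1 and 78.1 CPM of *Pmaip1*. Without DKO-severe 1, DKO-severe 2, and WT 3, the log2 fold change between DKO-severe and WT was 4.62 (adjusted p = 3.42e-05, edgeR).

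*Bid*, whose product is cleaved by caspase-8 and so links death receptors to mitochondria, had levels of 21.3, 20.5, 24.6 and 24.0 CPM in the 4 WT mice, 24.0, 20.7, 22.7 and 18.8 CPM in the DKO-moderate mice, and 15.7, 22.8, 19.7 and 19.4 CPM in the DKO-severe mice. In DKO-severe, 3 of the 4 libraries lay below all WT libraries, and the second did not. The log2 fold change of *Bid* (chr6:120891930-120916853, minus strand) in DKO-severe against WT was -0.22 (SE 0.13, adjusted p = 0.163, edgeR).

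*Bad*, whose product is held away from mitochondria by phosphorylation and 14-3-3 proteins, had levels of 12.1, 12.3, 12.4 and 11.8 CPM in the 4 WT mice, 15.6, 15.9, 14.9 and 20.1 CPM in the DKO-moderate mice, and 21.5, 17.2, 21.2 and 18.4 CPM in the DKO-severe mice. Every library of both DKO groups lay above every WT library, and the DKO groups overlapped. The log2 fold change of *Bad* (chr19:6941861-6951899, plus strand) was 0.69 in DKO-severe (SE 0.12, adjusted p = 0.000517, edgeR) and 0.45 in DKO-moderate (SE 0.12, adjusted p = 0.0221, edgeR), both against WT. The call in DKO-moderate was lost without WT 1, WT 2, or WT 4 (adjusted p = 0.0582, 0.0561, and 0.0563, edgeR).

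*Bmf*, whose product waits on the cytoskeleton of healthy cells, was the lowest of the 10 genes per kilobase in every group, at 5.63, 8.55, 9.29, and 1.72 CPM in WT, 4.6, 1.23, 7.10, and 10.7 CPM in DKO-moderate, and 4.87, 6.97, 1.33, and 8.71 CPM in DKO-severe. Each group held 1 library under 2 CPM, and the groups overlapped throughout. For *Bmf* (chr2:118528757-118549687, minus strand), the log2 fold change between DKO-severe and WT was -0.20 with a 95% interval from -1.66 to 1.26 (adjusted p = 0.813, edgeR), which holds a 2-fold change in either direction.

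**Figure D2:**
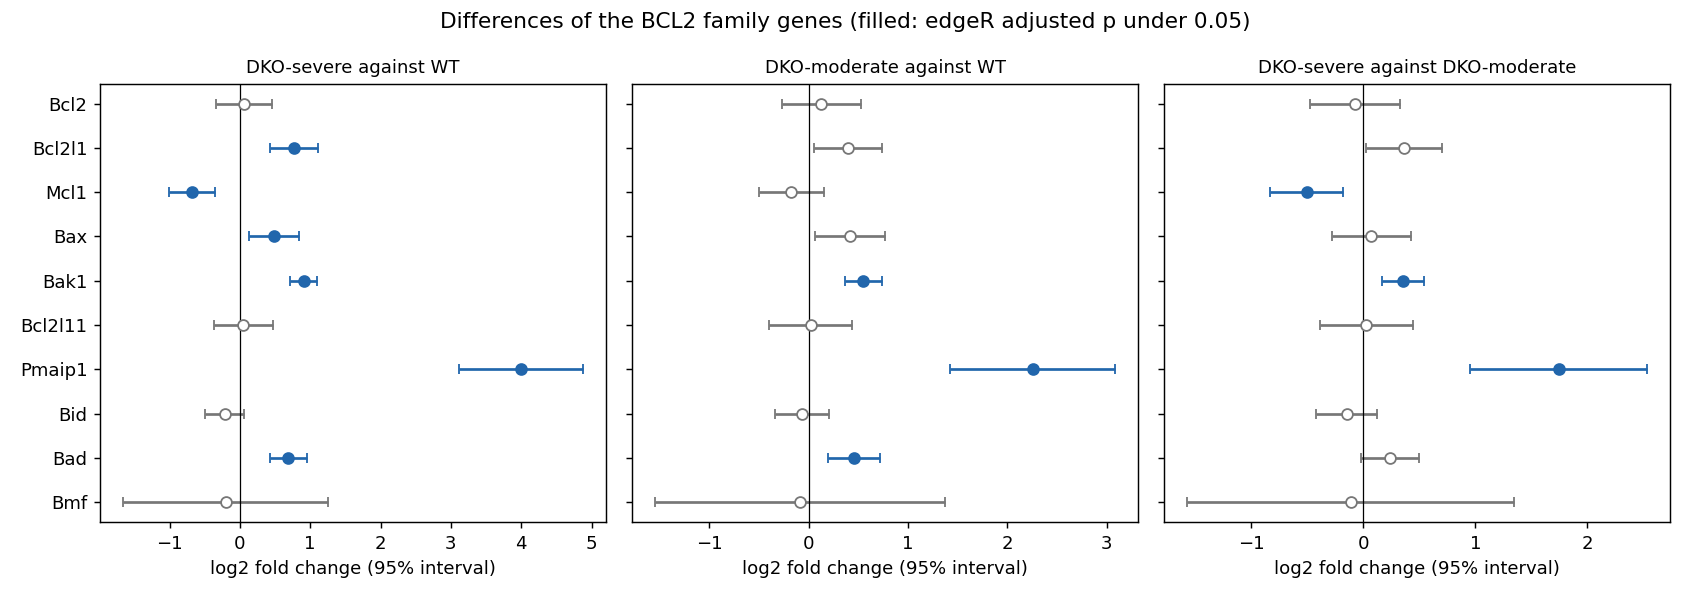
Log2 fold change (x axis) with its 95% interval for each of the 10 genes (y axis) in DKO-severe against WT, DKO-moderate against WT, and DKO-severe against DKO-moderate, each panel with its own x range; filled points have an edgeR adjusted p under 0.05. Pmaip1 stands apart in every panel at 4.00, 2.26, and 1.74, and Mcl1 is the only filled point left of 0.

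In DKO-severe against WT, 5 of the 10 genes were called higher and 1 lower, in a comparison in which 52.6% of all genes tested were called, 26.6% higher and 25.9% lower. In DKO-moderate against WT, 3 were called higher and 0 lower, against 17.1% of all genes, 12.3% higher and 4.74% lower. In DKO-severe against DKO-moderate, 2 were higher and 1 lower, against 20.1%, 9.41% higher and 10.7% lower. The share of the 10 genes called in DKO-severe against WT was thus near that of all genes. Their median log2 fold changes were 0.27, 0.26, and 0.05, beside -0.01, 0.00, and -0.03 over all genes. Counted by libraries that did not overlap, 5 of the 10 lay above and 1 below in DKO-severe against WT, where 51.9% of all genes did not overlap, 24.6% above and 27.3% below. In DKO-moderate against WT 3 lay above and 0 below (24.8% of all genes, 14.6% above and 10.2% below), and in DKO-severe against DKO-moderate 2 above and 1 below (21.3%, 9.77% above and 11.6% below). The comparisons with WT share their 4 WT libraries and are not independent of each other.

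With the 3 libraries highest in neutrophil or B cell genes left out, 4 of the 10 genes were higher and 1 lower in DKO-severe against WT, *Bax* being the call that was lost (log2 fold change 0.37, adjusted p = 0.180, edgeR). Over all genes, 3624 were then higher and 3055 lower, of 15497 tested. *Bcl2l1* (0.71, adjusted p = 0.0278, edgeR), *Mcl1* (-0.68, 0.0230), *Bak1* (0.96, 0.000219), and *Bad* (0.72, 0.00627) passed. In DKO-severe against DKO-moderate, *Mcl1* did not pass (-0.59, adjusted p = 0.0751, edgeR). With the mean level of the neutrophil and of the B cell genes as terms in the edgeR fit, *Bak1* and *Pmaip1* passed in DKO-severe against WT, at log2 fold changes of 0.91 and 4.05. *Bcl2l1* (0.73, adjusted p = 0.0974, edgeR), *Mcl1* (-0.65, 0.108), and *Bad* (0.59, 0.0820) then missed the threshold, and so did *Bax* (0.16, 0.661). In DKO-severe against DKO-moderate, *Pmaip1* (1.60, adjusted p = 0.138, edgeR) and *Bak1* (0.36, 0.234) missed it too, and in DKO-moderate against WT so did *Bad* (0.42, 0.0651). The neutrophil sums of DKO-severe did not overlap those of the other groups. The fit with these terms therefore cannot tell group and neutrophil level apart, and calls kept or lost in it do not decide between them. Plasma cell, monocyte and macrophage, and erythroid sums of DKO-severe did not overlap those of DKO-moderate. The part of other cells in these differences was not tested separately. The proliferation genes rose with *Pmaip1* and *Bak1* across the groups, and the naive T cell genes fell. Genes of T follicular helper cells, 5 in number, summed to 160 to 308 CPM in WT, 615 to 1437 in DKO-moderate, and 1433 to 2229 in DKO-severe. The part of these 3 gene lists was not tested.

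Ratios of reads between 2 genes of the same library do not depend on how libraries are scaled, and are given without a test. The reads of *Mcl1* per read of *Bcl2* were 3.62, 4.36, 3.85, and 3.00 in WT, 2.54, 3.51, 3.34, and 2.94 in DKO-moderate, and 2.56, 2.37, 1.90, and 2.12 in DKO-severe. All DKO-severe libraries lay below all WT libraries, with a mean log2 ratio that was lower by 0.72, from 1.88 ± 0.23 to 1.15 ± 0.19 (SD, n = 4). The log2 ratio of *Bcl2l1* to *Bcl2* was -3.41 ± 0.26 in WT, against -3.13 ± 0.55 in DKO-moderate and -2.69 ± 0.24 in DKO-severe (SD, n = 4), again without overlap between WT and DKO-severe. Reads of *Pmaip1* were 0.00315 to 0.00840 per read of *Mcl1* in WT, 0.0215 to 0.0427 in DKO-moderate, and 0.0585 to 0.179 in DKO-severe. The groups did not overlap, and the geometric mean ratio was 26.2-fold higher in DKO-severe than in WT. This pair sets the member that rose most over the only member called lower, so its ratio restates those differences and adds no separate result. The log2 ratio of *Bax* to *Bcl2* was -1.54 ± 0.27 in WT and -1.10 ± 0.29 in DKO-severe (SD, n = 4), without overlap. That of *Bcl2l11* to *Bcl2*, the BH3-only activator against its antiapoptotic partner, was -1.76 ± 0.26 in WT, against -1.82 ± 0.18 in DKO-moderate and -1.77 ± 0.37 in DKO-severe (SD, n = 4), and the groups overlapped. The ratios of *Bid* and of *Bmf* to *Bcl2* also overlapped between the groups.

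**Figure D3:**
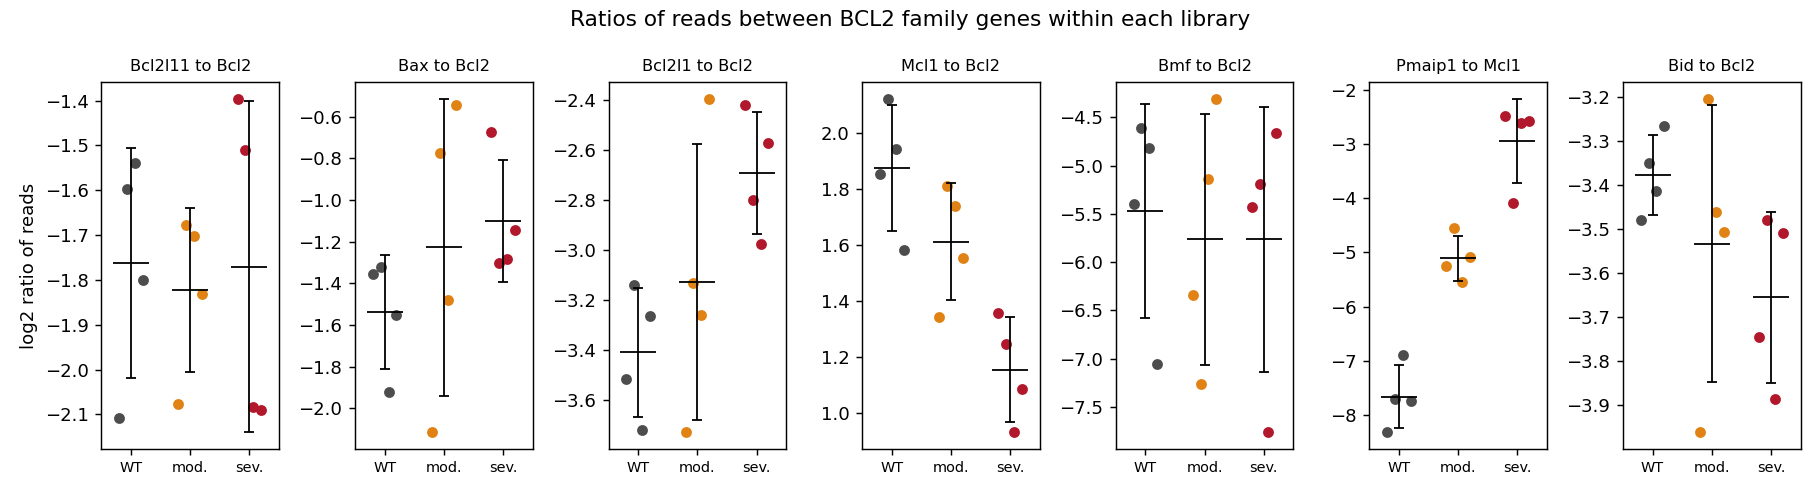
Log2 ratio of the reads of 2 BCL2 family genes within each library (y axis, its own scale per ratio), with 1 point per mouse, the mean as the long bar, and the SD of 4 mice as the error bar, in WT, DKO-moderate (mod.), and DKO-severe (sev.). Pmaip1 to Mcl1 has means of -7.66, -5.10, and -2.94 with no overlap, all DKO-severe points of Mcl1 to Bcl2 lie below the WT points, and the groups of Bcl2l11 to Bcl2 overlap.

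Promoters from RefSeq (GRCm38.p6, 250 bases before to 50 after each annotated start) of 9 of the 10 genes, 15 promoters in all, were searched on both strands for motifs of factors that respond to cytokines, growth signals, or the cell cycle. The FOXO motif GTAAACA lay in 1 of the 15, that of *Bcl2l11*, and in 3.65% of all 32851 promoters. The E-box CACGTG lay in 1 of the 15, that of *Bax*, at 2 places, and in 7.15% of all promoters. The E2F motif (TTTCGCGC or TTTGGCGC) lay in 1 of the 15, a promoter of *Bcl2l1*, and in 0.813% of all promoters. The CRE motif TGACGTCA and the STAT motif TTCNNNGAA were in none of the 15, and in 1.79% and 8.3% of all. The 4 windows are shown 5′ to 3′ on the strand of the gene, with the motif, or its reverse complement for E2F, in capitals. *Bcl2l11* was not called, and *Bax* and *Bcl2l1* were higher in DKO-severe. Whether the motifs bear on these calls was not tested. None of the 4 matches overlapped a match of another of these motifs. The promoter of *Pmaip1* was not used here. A match of letters does not show that a factor binds there.
Bcl2l11, FOXO motif, chr2:128125800-128125829, plus strand: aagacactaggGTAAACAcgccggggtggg
Bax, E-box before the start, chr7:45466890-45466919, minus strand: agcgatgatgatCACGTGactagtcctgcg
Bax, E-box after the start, chr7:45466849-45466875, minus strand: ttgcggggcaccCACGTGagggccgca
Bcl2l1, E2F motif, chr2:152830844-152830873, minus strand: tccgcgtccctGCGCGAAAccttgagattc

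Of 13 other BCL2 family genes, 11 were tested, and *Bcl2l10* and *Hrk* had no reads in any of the 12 libraries. In DKO-severe against WT, 7 were higher, 1 lower, and 3 not called, beside 26.6% higher and 25.9% lower among all genes, with a median log2 fold change of 1.16. In DKO-moderate against WT 3 were higher and 0 lower (12.3% and 4.74% of all genes), and in DKO-severe against DKO-moderate 0 were called either way (9.41% and 10.7%). These counts moved with the tool. DESeq2 called *Bok* (adjusted p = 0.00554) and *Bcl2a1a* (0.0474) higher in DKO-moderate against WT, and the same genes in DKO-severe against DKO-moderate (0.0209 and 0.0150). In the latter comparison limma voom called *Bok* (adjusted p = 0.0106), *Bcl2a1a* (0.00350), *Bcl2a1d* (0.00115), and *Bcl2l14* (0.0101). The 5 with the largest differences were *Bok*, *Bcl2a1a*, *Bcl2a1d*, *Bcl2l14*, and *Bcl2a1b*. *Bcl2a1b*, *Bcl2a1d*, and *Bcl2a1a* encode forms of the antiapoptotic protein A1. *Bcl2a1b* was at 28.4 ± 4.15 CPM in WT, against 74.6 ± 21.6 in DKO-moderate and 80.5 ± 8.60 in DKO-severe (SD, n = 4), 2.83 times its WT level in DKO-severe (adjusted p = 4.21e-05, edgeR). *Bcl2a1d* rose from 10.3 ± 2.09 CPM in WT to 44.9 ± 20.4 in DKO-moderate and 68.2 ± 11.5 in DKO-severe (SD, n = 4), with log2 fold changes of 2.12 and 2.72 (adjusted p = 0.000581 and 1.92e-05, edgeR). These genes are near-identical, and only reads with a single position were counted, so the split between them is uncertain. *Bcl2a1a*, at 0.192 ± 0.281 CPM in WT and 3.78 ± 2.09 in DKO-severe (SD, n = 4), was the lowest of these 3 genes.

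*Bok*, an effector-like member of the family, had 0 reads in the 4 WT libraries together, 25 in DKO-moderate, and 248 in DKO-severe. Against a floor of 3 reads over the WT group, which covers counting error only, it was at least 76.9-fold higher in DKO-severe (adjusted p = 0.00210, edgeR) and at least 7.76-fold higher in DKO-moderate, where it did not pass (adjusted p = 0.0652, edgeR). Of the 25 DKO-moderate reads, 16 came from DKO-moderate 2, and without that library the bound was 3.56-fold. Its level in DKO-severe ran from 8 to 110 reads a library, low even where it was highest. *Bok* met the filter on reads only through the DKO groups, where it is high. Its call, and its place among the family genes called higher, are thus not independent of that filter. *Bcl2l14* was at 0.991 ± 0.185 CPM in WT and 4.73 ± 1.25 in DKO-severe (SD, n = 4), and its log2 fold change was 2.25 (adjusted p = 0.000237, edgeR). Without DKO-severe 1, DKO-severe 2, and WT 3, *Bok*, *Bcl2l14*, *Bcl2a1a*, *Bcl2a1b*, and *Bcl2a1d* still passed in DKO-severe against WT.

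Downstream of the mitochondrion, 9 genes of the apoptosome, caspases, and their inhibitors were counted. In DKO-severe against WT, 1 of them was higher, 1 was lower, and 7 were not called (median log2 fold change 0.016), beside 26.6% higher and 25.9% lower among all genes. *Apaf1*, the scaffold on which caspase-9 is activated, was higher in DKO-severe by 0.47 (adjusted p = 0.00950, edgeR). *Birc2*, which encodes the ubiquitin ligase cIAP1, was lower in DKO-severe, the log2 fold change being -0.71 (adjusted p = 0.000303, edgeR). Of these 9 genes, 0 were higher and 1 lower in DKO-moderate against WT (12.3% and 4.74% of all genes). In DKO-severe against DKO-moderate, 2 of them were higher and 0 lower (9.41% and 10.7% of all genes).

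Of 8 genes of the death receptor pathway, 0 were higher and 5 lower in DKO-severe against WT (26.6% and 25.9% of all genes). Their median log2 fold change there was -0.65. In DKO-moderate against WT 0 were higher and 1 lower (12.3% and 4.74% of all genes), and in DKO-severe against DKO-moderate 0 were higher and 4 lower (9.41% and 10.7%). With both lists as terms (neutrophil, B cell), all 4 of the latter missed the threshold: *Fas* (adjusted p = 0.111, edgeR), *Tnfrsf1a* (0.260), *Cflar* (0.406), and *Casp8* (0.454). Of 23 alternatives, *Cflar* lost that call in 8, *Tnfrsf1a* in 3, *Casp8* in 2, and *Fas* in 1. *Tnfrsf1a*, which encodes TNF receptor 1, was at 53.7 ± 1.92 CPM in WT, against 35.3 ± 6.38 in DKO-moderate and 23.3 ± 3.97 in DKO-severe (SD, n = 4), with log2 fold changes of -1.20 and -0.60 against WT (adjusted p = 4.13e-05 and 0.0128, edgeR). *Fas*, the receptor of Fas ligand, was at 28.9 ± 1.02 CPM in WT, against 27.0 ± 0.736 in DKO-moderate and 16.9 ± 4.06 in DKO-severe (SD, n = 4), with log2 fold changes of -0.77 against WT (adjusted p = 0.00106, edgeR) and -0.68 against DKO-moderate (adjusted p = 0.0105, edgeR). Both the gene of the initiator caspase, *Casp8*, and that of its inhibitor c-FLIP, *Cflar*, were lower in DKO-severe than in WT, by log2 fold changes of -0.64 (adjusted p = 0.000699, edgeR) and -0.86 (adjusted p = 0.000684, edgeR). *Tnfrsf10b*, the TRAIL receptor gene, had a log2 fold change of -0.67 (adjusted p = 0.0207, edgeR) and its call was lost without WT 2 or any 1 of DKO-severe 1, 2, and 3, with adjusted p-values from edgeR of 0.0503 to 0.0641.

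Of 8 genes whose products act on BCL2 family proteins (*Huwe1*, *Usp9x*, and *Fbxw7*, which set the stability of MCL1, the dynein light chains *Dynll1* and *Dynll2*, and 3 genes of 14-3-3 proteins), 2 were higher and 0 lower in DKO-severe against WT (26.6% and 25.9% of all genes), and edgeR called 0 in both other comparisons. *Dynll2*, whose product tethers BMF, had a log2 fold change of 0.54 (SE 0.12, adjusted p = 0.00221, edgeR), and *Ywhae*, which encodes a 14-3-3 protein, 0.40 (SE 0.09, adjusted p = 0.00298, edgeR). Both were called higher in DKO-severe against DKO-moderate in 5 alternatives each, DESeq2 among them (adjusted p = 0.0180 and 0.00804), and by limma voom in DKO-moderate against WT (adjusted p = 0.0448 and 0.0371). Among the pathway genes recomputed under the alternatives, *Tnfrsf10b* alone lost its call between DKO-severe and WT without the 3 libraries highest in neutrophil or B cell genes (adjusted p = 0.206, edgeR). With the terms for both lists, *Bok* (adjusted p = 0.0899, edgeR), *Birc2* (0.0865), *Cflar* (0.146), *Casp8* (0.199), *Tnfrsf10b* (0.739), and *Ywhae* (0.100) did not pass there, whereas *Apaf1*, *Fas*, *Tnfrsf1a*, *Dynll2*, *Bcl2l14*, and the *Bcl2a1* genes did. The call of *Apaf1* in DKO-severe against DKO-moderate (adjusted p = 0.0415, edgeR) was lost in 13 alternatives and that of *Birc2* in DKO-moderate against WT (adjusted p = 0.0347, edgeR) in 11. Without the 3 libraries, *Apaf1* (adjusted p = 0.0823, edgeR), *Cflar* (0.0631), and *Casp8* (0.0714) lost the call in DKO-severe against DKO-moderate. *Bcl2a1a* (0.0259) and *Dynll2* (0.0364) gained it there, and *Bcl2a1a* also in DKO-moderate against WT (0.0147).

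**Figure D4:**
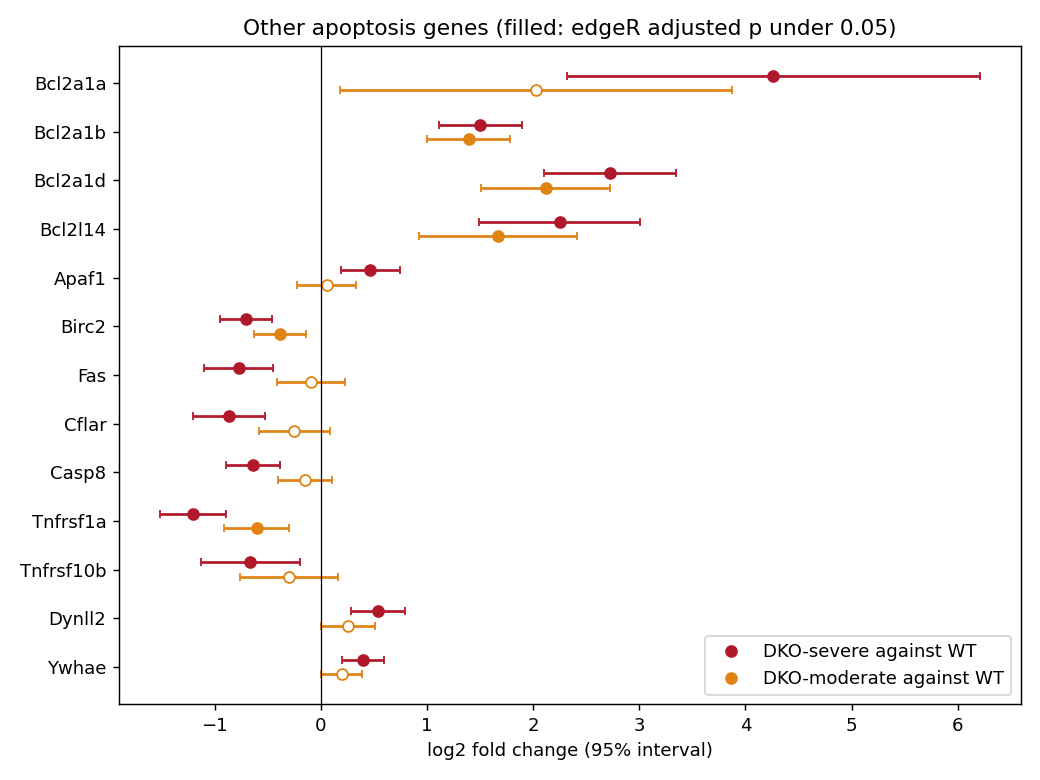
Log2 fold change with its 95% interval (x axis) of the named genes outside the 10 (y axis), in DKO-severe against WT and in DKO-moderate against WT; filled points have an edgeR adjusted p under 0.05, and Bok is left out because it has no reads in WT. The Bcl2a1 genes and Bcl2l14 lie to the right, and the 5 death receptor genes and Birc2 to the left.

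Across the 12 libraries, the genes whose log2 CPM, centred on its mean, followed each of 4 members most closely were found among 9986 genes with a mean of at least 5 CPM, by the root mean square difference. For *Mcl1* they were *Taf8* at 0.0746, *Zfp276* at 0.0861, and *Ppp4r2* at 0.102, against a spread of *Mcl1* itself of 0.36 (SD of log2 CPM). For *Bcl2l1* they were *Pnp* at 0.140, *Gbp5* at 0.150, and *Txn1* at 0.156, against a spread of 0.39. For *Bcl2*, at a spread of 0.26, the nearest were *Mtfr1* at 0.155, *Fxr1* at 0.159, and *Ero1l* at 0.164, and for *Bcl2l11*, at a spread of 0.28, *Prkx* at 0.148, *Arl8a* at 0.151, and *Tmppe* at 0.153. *Mcl1* was thus matched more closely, relative to its own spread, than *Bcl2* or *Bcl2l11*. These are descriptions over 12 libraries that share the 3 groups.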

How the data were processed

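RNA was measured in 12 libraries, 4 from each group. For these files the authors made stranded libraries, mapped the reads to mm10 with STAR 2.7.11, kept those that mapped once, and deposited the raw counts that htseq-count gave for each gene in reverse-stranded mode, not normalized. Which annotation they counted on is not given in the sources used here. Coordinates and exon lengths come from GENCODE M21. Rows that name no gene held 18.5% to 23.7% of the records and were left out. Any pair of libraries within a group differed far beyond counting noise (lowest ratio of chi-square to degrees of freedom 21.6), so none was a copy of another.

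Genes reaching a sum of 10 reads in the libraries of at least 1 condition were kept. After TMM scaling, a quasi-likelihood model in edgeR 4.0.16 (R 4.3.3) was fitted to all 3 groups at once, and p-values were adjusted by Benjamini-Hochberg over every gene tested, with a threshold of 0.05. The study itself used DESeq2. Standard errors (SE) are the log2 fold change over the square root of F. Ratios used a pseudocount of 0.5 reads. Alternatives were DESeq2 1.42.0, limma voom with quality weights (limma 3.58.1), DESeq2 size factors, library size alone, 2 other filters, a fit of each pair of groups, a block for replicate numbers, terms for neutrophil and B cell genes or for Y-linked transcripts, and leaving out each library. Leaving out DKO-severe 1, DKO-severe 2, and WT 3 together was added after their values were seen. The fit was tested on simulated data: with 200 changed genes in DKO-severe against WT, it recovered 65% of those changed by 1 and 88% of those changed by 2 on the log2 scale, with 1.92% of calls false. False calls made up 6.25% in DKO-moderate against WT and 4.52% in DKO-severe against DKO-moderate. The share of genes changed in the simulation was far below the 52.6% called in DKO-severe against WT, so these rates need not hold here. Residual correlations showed no pairing of libraries across groups by replicate number (median -0.034 at the same number, 0.013 at different numbers). With 12 pairs at the same number, from -0.27 to 0.21, they cannot exclude it. The labels do not say whether mice shared a litter or a sort, so p-values measure the spread between these mice.

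The 10 genes and the gene lists were chosen with earlier results of these data known. All 10 are named, and from each pathway list up to 5 called genes that differed most between DKO-severe and WT. From the pathway lists, 2 genes are not reported here and were left out of the counts and medians of their list, after values were seen. Python 3.11.15, pandas 2.3.3, and matplotlib 3.10.9 served for tables and figures.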

Additional observations from a re-analysis of the deposited data

How the results depend on the processing

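Over all alternatives, 690 values of the 10 genes were recomputed: 613 kept their direction and side of the threshold, 25 lost the call, 8 gained it, and 44 changed sign, all of the last among differences that were not called. Over 23 alternatives, the counts of called members moved in 5 for DKO-severe against WT, 7 for DKO-moderate against WT, and 13 for DKO-severe against DKO-moderate, 10 of the last through *Mcl1*. In DKO-severe against DKO-moderate, 4 were higher with DESeq2 and with voom (*Bcl2l1* and *Bad* joined), and 0 were lower with DESeq2 size factors, with library size alone, with only the groups compared, with terms for neutrophil and B cell genes (composition terms), and without the 3 libraries highest in those genes. With these terms 2 were higher and 0 lower in DKO-severe against WT, and 0 higher in DKO-severe against DKO-moderate. Over all 16035 genes these terms called 2157 higher and 874 lower in the former, and 185 higher in the latter. DESeq2 and voom called 2497 and 3047 of all genes higher in DKO-severe against DKO-moderate. Leaving out 1 library gave 4 to 5 higher and 1 lower in DKO-severe against WT, 2 to 4 higher and 0 lower in DKO-moderate against WT, and 2 to 4 higher and 0 to 1 lower in DKO-severe against DKO-moderate. Over all genes these fits called 3683 to 4675 higher and 3433 to 4331 lower in DKO-severe against WT. The counts were 1316 to 1994 and 300 to 935 in DKO-moderate against WT, and 764 to 1846 and 834 to 1958 in DKO-severe against DKO-moderate. The ratios moved by less than their spread in all alternatives run.

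Signs changed for small, uncalled log2 fold changes, each range being that of leaving out 1 library. In DKO-severe against DKO-moderate these were *Bcl2* (0.0091 with DESeq2 and with its size factors, 0.050 with library size alone, 0.25 with the composition terms, 0.00017 without the 3 libraries, range -0.19 to 0.17), *Bcl2l11* (-0.16 with voom, -0.30 with the composition terms, -0.024 with the Y-linked term, -0.24 without the 3 libraries, range -0.052 to 0.20), *Bax* (-0.13 with the composition terms, range -0.025 to 0.28), *Bmf* (0.0048 with library size alone, range -0.45 to 0.39), *Bcl2a1b* (-0.16 with the composition terms, range -0.0055 to 0.36), and *Tnfrsf10b* (0.014 with the composition terms). In DKO-moderate against WT they were *Bid* (0.035 with voom, 0.0041 with library size alone, 0.011 with the composition terms), *Bmf* (0.081 with the composition terms, 0.16 without the 3 libraries, range -0.56 to 0.25), *Bcl2* (range -0.11 to 0.25), *Bcl2l11* (range -0.099 to 0.17), and *Apaf1* (range -0.011 to 0.17). In DKO-severe against WT they were *Bcl2l11* (-0.21 with the composition terms, -0.070 without the 3 libraries, range -0.052 to 0.21), *Bcl2* (range -0.0051 to 0.14), and *Bmf* (range -0.52 to 0.16). The cause was not tested. Of 963 values of the named pathway genes, 50 lost the call and 38 gained it.

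With the replicate number as a block, *Bad* in DKO-moderate against WT lost its call (edgeR adjusted p = 0.0533), leaving 2 members higher there, and no other member's call changed. The numbers are labels of mice and not known pairs. Over all genes, the composition terms called 3031 genes in DKO-severe against WT beside 8428, and 204 in DKO-severe against DKO-moderate beside 3217, where voom called 6126. Leaving out 1 library called as few as 1616 genes in DKO-moderate against WT (without WT 1; 1707 without WT 2, beside 2734) and 1646 in DKO-severe against DKO-moderate (without DKO-moderate 1; 1815 to 1997 without DKO-moderate 3, DKO-severe 1, DKO-severe 3, or DKO-severe 4). The 3 libraries left out together gave 2055 there. Library size alone put the median of all genes at 0.18 on the log2 scale in DKO-severe against WT, where 66.5% of calls were then higher beside 50.7%. In DKO-severe against DKO-moderate the share of higher calls was 46.9% with TMM and 64.9% with library size alone.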
